A study of Mus musculus with 12 samples.

Results

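Zinc finger genes named Zfp with a number were described in mouse bone marrow-derived macrophages, phagocytes grown from marrow, under an inflammatory stimulus, a second agent and their combination. The members are the rows of the deposited table whose symbol is Zfp followed by digits, without Zfp36, and whose read counts sum to at least 1000 over the 12 libraries. They were thus chosen by symbol and by their summed read counts. This gave 211 genes of 21899 rows, and 158 further Zfp-number genes stayed below the minimum, 25 of them at 0 reads in every library. All cells were labelled wild type (wt), primary and from marrow, and the 4 groups of 3 libraries each were macrophages given PgLPS and CS-PA/CNP together, PgLPS alone, CS-PA/CNP alone, or neither (control). PgLPS is a lipopolysaccharide by its label, and the labels expand neither abbreviation. No source used here states the dose, the time of exposure, or the strain, sex and age of the mice. Titles call the libraries of a group biological replicates without naming mice or cultures, so p-values measure the spread between these libraries only.

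A zinc finger is a short stretch of protein folded around a zinc ion, and arrays of such fingers usually read a DNA sequence, while some bind RNA or other proteins. Many of these genes encode repressors in which a KRAB domain recruits the corepressor Trim28, which in turn brings the histone methyltransferase Setdb1 and heterochromatin proteins to the bound site, and this system is best known for silencing retroelements. SCAN domains pair such proteins with each other. Numbered Zfp genes outside the KRAB group include activators and repressors of development, RNA-binding proteins and ubiquitin ligases, so a shared name does not mean a shared role. The deposited annotation placed 100 members in an orthology group of KRAB zinc finger proteins, 6 in a KRAB and SCAN group and 3 in a SCAN group. It gave 21 another group and 81 none.

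The libraries held 14992707 to 20082900 counted reads. The summed level of 8 macrophage genes lay at 27391 to 28724 CPM (read counts scaled to library size and composition) with both agents, 27347 to 29566 with PgLPS, 22642 to 24262 with CS-PA/CNP and 19896 to 21185 in control libraries. Lyz2 made up most of it, at 17569 CPM with PgLPS and 15401 CPM in control libraries. Against control, Mrc1 and Cd68 fell with PgLPS, by log2 differences of -0.95 ± 0.08 and -0.32 ± 0.06 (SE), and the other 6 rose. Of the other cell types listed, 6 neutrophil genes summed to 124 to 138 CPM with both agents and 156 to 178 CPM with PgLPS, against 63.7 to 98.5 CPM without it. Most of that sum was S100a8 and S100a9, at 60.5 and 102 CPM with PgLPS and 23.3 and 59.8 CPM in control libraries. The list did not move as 1: Camp also rose, but Ly6g had 3 reads with PgLPS and 14 in control libraries. Elane had 6 and 19 reads in the same groups, and Mpo was not called, at -0.63 ± 0.55. The 4 B cell genes summed to at most 3.61 CPM. The 4 T cell genes summed to at most 12 CPM, nearly all of it Cd4, with Cd3d at 0 in every library. The 6 stromal genes summed to 1.91 to 4.62 CPM with both agents, to 53.5, 10.4 and 5.82 CPM in the PgLPS libraries and to at most 2.71 CPM without PgLPS. Most of the sum with PgLPS was Col1a1 and Col1a2, at 8.89 ± 11.3 and 8.70 ± 12.1 CPM (SD, n = 3 libraries). Pdgfrb stood at 0.784 CPM with both agents and 3.66 CPM with PgLPS. Dcn did not differ between these groups, at 0.755 and 0.745 CPM, and Pdgfra had 2 and 3 reads. PgLPS library 1 stood highest in the stromal sum. Without it 37 zinc finger genes rose and 49 fell with PgLPS, counts to set beside those given below with it. The share over all tested genes is not given for that fit, so these counts cannot be read as particular to the members. The part of neutrophil or stromal RNA in the results was not tested. Bulk counts cannot tell fewer cells of a type from less RNA per cell.

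As a group the zinc finger genes were weakly expressed. Their median level per deposited gene length was 3.16 FPKM, against 5.71 FPKM over all 11656 tested genes and 8.27 FPKM over tested genes that met the same minimum of 1000 reads. Single genes averaged 0.572 to 25.9 FPKM over the 12 libraries. The KRAB group had a median of 2.53 FPKM, and the other members had 3.93 FPKM. All 211 members together took 0.407 to 0.435% of reads with both agents, 0.405 to 0.456% with PgLPS, 0.509 to 0.527% with CS-PA/CNP and 0.529 to 0.571% in control libraries. On the composition-scaled CPM used below, the same sums were 4580 to 4836 with both agents, 4751 to 5215 with PgLPS, 4570 to 4692 with CS-PA/CNP and 4610 to 4917 in control libraries. The share of raw reads was thus lower in every library that received PgLPS, while on the scaled sums the PgLPS libraries lay above those with CS-PA/CNP and every other pair of groups overlapped. The highest levels per length were those of Zfp263, a DNA-binding repressor of heparan sulfate genes in human cells, at 25.9 FPKM, Zfp207, a microtubule-binding spindle protein also called BuGZ, at 24.7 FPKM, Zfp710 at 23.9 FPKM and Zfp706 at 21.0 FPKM.

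The count minimum acts on the sum over all libraries. It was reached by 184 members with at least 250 reads in every group, while 27 fell below 250 reads in some group. Without the group in which they had most reads, 30 members would have had fewer than 1000, so these met the minimum only with that group. Zfp558 had 705 reads in the PgLPS libraries and 456 in the other 3 groups together, and Zfp658 had 1339 and 900. Zfp810, Zfp101 and Zfp934, named below among the falls, met it only with their control libraries. A difference in these 30 is in part a condition of their being here. Just inside the minimum lay Zfp619 with 1043 reads and Zfp235 with 1080 reads. Just outside lay Zfp811 with 997 reads, which averaged 5.68 CPM with both agents, 15.4 CPM with PgLPS, 0.319 CPM with CS-PA/CNP and 0.246 CPM in control libraries, and Zfp605 with 983 reads and 4.47, 5.77, 4.93 and 3.95 CPM in the same groups.

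Among members that changed by at least 2-fold with PgLPS, a pair of neighbouring KRAB genes on chromosome 7, Zfp658 and Zfp719, lay 4149 bases apart on the same strand in the deposited table. The RefSeq promoters of both, and that of Zfp429, a riser that held a match to an NF-kB site, are printed here so that genes that moved with PgLPS can be read beside their start sites. Each runs 5′ to 3′ on the strand of the gene, from 250 bases before to 50 bases after the annotated start, on GRCm38.p6. Capitals mark matches, on either strand, to the NF-kB pattern GGGNNTTTC or the GC box GGGCGG, and the interferon response pattern TTTCNNTTT was searched in the same way. The Zfp658 promoter is chr7:43562120-43562419, plus strand.
Zfp658: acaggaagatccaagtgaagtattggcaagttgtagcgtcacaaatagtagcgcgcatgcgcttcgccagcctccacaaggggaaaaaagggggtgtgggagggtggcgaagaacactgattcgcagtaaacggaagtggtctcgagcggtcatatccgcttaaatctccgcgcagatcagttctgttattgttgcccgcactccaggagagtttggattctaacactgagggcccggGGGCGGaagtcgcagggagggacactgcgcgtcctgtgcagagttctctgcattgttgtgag
The Zfp719 promoter is chr7:43579336-43579635, plus strand.
Zfp719: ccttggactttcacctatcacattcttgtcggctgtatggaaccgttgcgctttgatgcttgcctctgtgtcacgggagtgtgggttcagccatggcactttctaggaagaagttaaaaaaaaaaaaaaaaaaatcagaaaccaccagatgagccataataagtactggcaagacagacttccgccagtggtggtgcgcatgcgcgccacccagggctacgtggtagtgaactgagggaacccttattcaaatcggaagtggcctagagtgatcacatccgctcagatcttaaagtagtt
The Zfp429 promoter is chr13:67399718-67400017, minus strand.
Zfp429: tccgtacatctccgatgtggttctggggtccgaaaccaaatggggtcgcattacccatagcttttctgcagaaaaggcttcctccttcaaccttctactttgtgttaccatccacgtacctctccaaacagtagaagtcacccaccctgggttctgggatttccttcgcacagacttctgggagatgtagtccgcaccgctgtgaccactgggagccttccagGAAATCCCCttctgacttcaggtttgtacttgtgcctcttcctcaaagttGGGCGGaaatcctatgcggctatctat
The first carried 1 GC box, the second no match to any of the 3 patterns, and the third an NF-kB match and a GC box.

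Promoters were found for 174 of the 211 members, 214 promoters in all, since a gene can have several start sites. The NF-kB pattern stood in 2.8% of them, against 4.36% of all 32851 mouse promoters in the table, and the interferon pattern in 7.01% against 10.6%. GC boxes were more frequent, in 50.9% of member promoters and 35.7% of all promoters. Split by the response to PgLPS given below, 36 of 50 promoters of members that rose (72%) held a GC box, 44.7% of those of members that fell, and 44.4% of those of members not called. The 50, 47 and 117 promoters in these sets came from 36, 39 and 99 genes. Several start sites of 1 gene were counted separately and are not independent. For the NF-kB pattern the shares were 1 of 50 promoters of members that rose and 1 of 47 of members that fell, and for the interferon pattern 2 in each. These are descriptions of letters in 300-base windows, and no test was made of them.

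PgLPS against control asks which of these genes moved with the inflammatory stimulus alone. Of the 211 genes, 45 rose and 50 fell (edgeR quasi-likelihood test, Benjamini-Hochberg adjusted p under 0.05 over all tested genes), which is 45% of them. Among the 181 members that met the minimum without their highest group, 43 rose and 43 fell. Over all 11656 tested genes 63.8% were called, 32.2% higher and 31.6% lower, and over tested genes with at least 1000 reads 66.8%. Changes were also smaller in size: the median absolute log2 difference was 0.26 for the members, 0.45 for all tested genes and 0.38 for those with at least 1000 reads. Of the members 17 (9 higher, 8 lower) passed 2-fold, 8.06% of them, against 24.4% of all tested genes and 20% of those with at least 1000 reads. The direction of the small changes rested on the scaling. With library totals in place of composition scaling, the median of all genes shifted by -0.41 on the log2 scale, 17 members rose and 149 fell, and rises made up 10.2% of the members' calls in place of 47.4%. Over all tested genes 16.7% rose and 59.7% fell with library totals. None of the individual log2 differences named below with a call turned its sign under that scaling, apart from those marked.

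**Figure D1:**
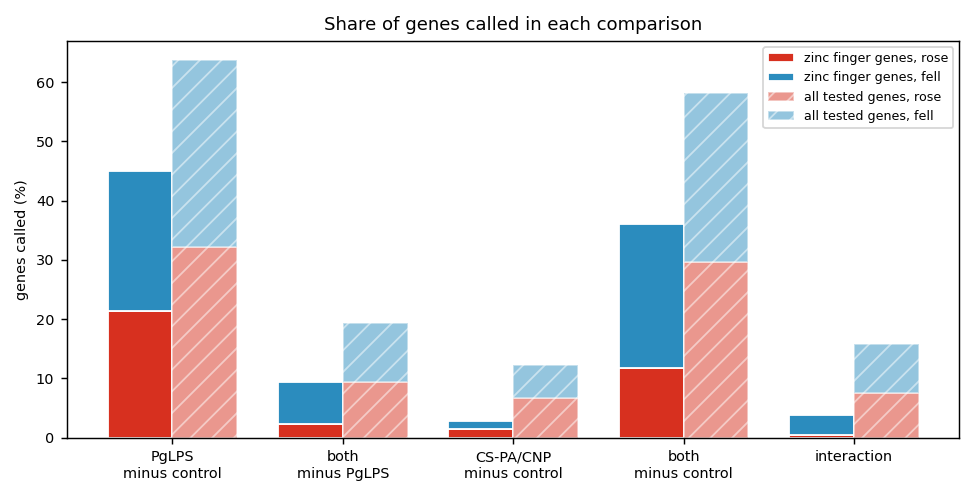
Share of genes called at an adjusted p under 0.05 (y axis, percent) in each of the 5 comparisons, with solid bars for the 211 zinc finger genes and hatched bars for all 11656 tested genes, split into higher (red) and lower (blue). In every comparison the zinc finger genes' bar is the shorter, for example 45% against 63.8% for PgLPS minus control and 2.84% against 12.3% for CS-PA/CNP minus control.

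Zfp658, whose human counterpart ZNF658 is known as a zinc-responsive regulator of transcription, showed the largest rise, and is one of the genes that met the count minimum only with their PgLPS libraries. It stood at 29.6, 25.6 and 33.4 CPM in the PgLPS libraries, against 2.04, 3.42 and 1.51 CPM in the control libraries. Its log2 difference was 3.65 ± 0.21 (SE, n = 3 libraries each; edgeR adjusted p = 1.8e-11), and no PgLPS library came near a control library. Zfp719, its KRAB-group neighbour whose promoter is printed above, had 31.0, 28.7 and 29.6 CPM with PgLPS, against 4.61, 5.88 and 5.99 CPM in control libraries. That is a log2 difference of 2.43 ± 0.13 (edgeR adjusted p = 3.1e-12). No 100-base stretch of the annotated transcripts of either gene occurs in another gene's transcripts, so reads of that length or longer from one are not identical to the other.

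Zfp558, a KRAB-group gene on chromosome 9, had 16.9, 14.2 and 15.8 CPM with PgLPS, against 1.83, 1.86 and 1.90 CPM in control libraries (log2 difference 3.06 ± 0.19, edgeR adjusted p = 4.2e-11). Like Zfp658 it met the count minimum only with its PgLPS libraries, which bears also on the other comparisons of both genes given below. Zfp821 on chromosome 8, with no orthology group, had 45.5, 48.4 and 44.0 CPM with PgLPS, against 5.19, 6.24 and 5.99 CPM in control libraries, a log2 difference of 2.98 ± 0.15 (edgeR adjusted p = 1.7e-12). In all of these the lowest PgLPS library was above the highest control library by more than the range within either group.

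Zfp281, a factor of pluripotent cells that recruits the NuRD repressor complex, had 117, 91.4 and 106 CPM with PgLPS, against 41.7, 37.2 and 37.3 CPM in control libraries (log2 difference 1.44 ± 0.10, edgeR adjusted p = 3.7e-10). Zfp800, whose human counterpart acts in the development of enteroendocrine cells, stood at 76.2, 57.4 and 64.8 CPM with PgLPS and at 26.8, 22.9 and 19.4 CPM in control libraries (log2 difference 1.52 ± 0.12). Zfp503, a developmental repressor also called Nolz1, had 16.6, 17.5 and 15.4 CPM with PgLPS and 5.66, 6.44 and 5.15 CPM in control libraries (log2 difference 1.52 ± 0.15, edgeR adjusted p = 4.5e-08). Its paralog Zfp703 rose by 0.56 ± 0.09. The other members past 2-fold were Zfp429 on chromosome 13, at 13.0 ± 1.14 CPM with PgLPS and 5.45 ± 0.719 CPM in control libraries (SD, n = 3 each), and Zfp523, a paralog of the promoter-binding activator Zfp143, at 18.2 ± 1.43 and 8.57 ± 0.505 CPM in the same groups. Zfp143 itself rose by 0.55 ± 0.11.

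**Figure D2:**
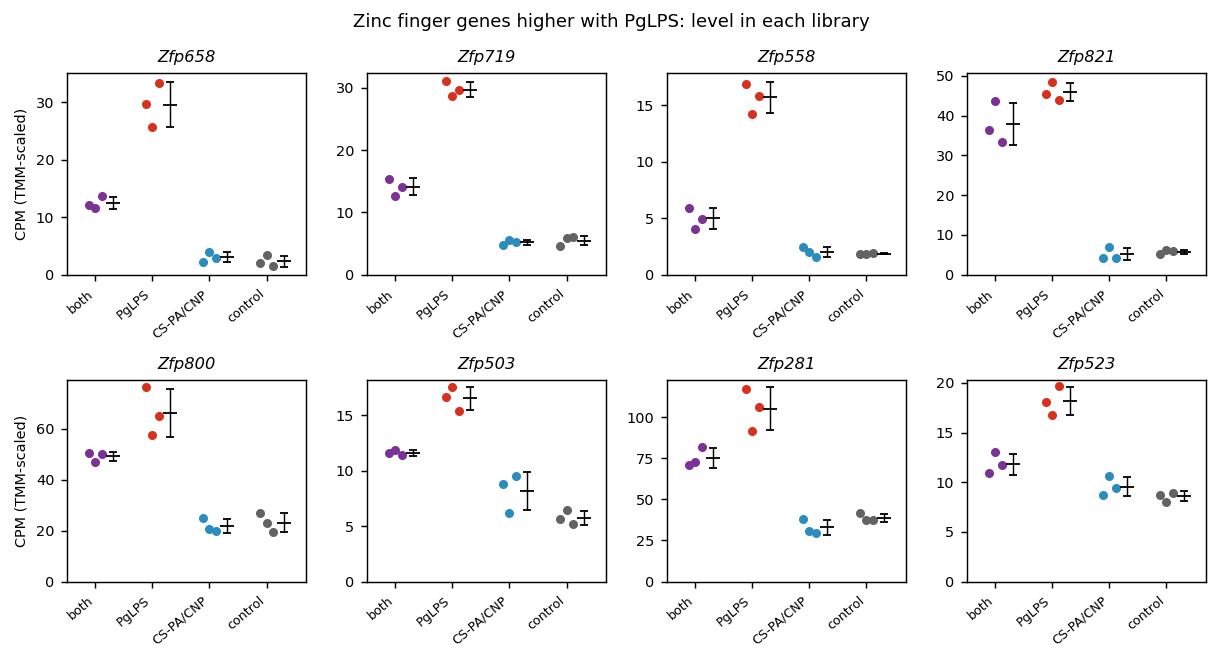
Level of 8 zinc finger genes that were higher with PgLPS than in control, in TMM-scaled CPM (y axis, linear from 0), with 1 point per library for both agents, PgLPS, CS-PA/CNP and control from left to right, and the mean ± SD of each group beside its points. For Zfp658, Zfp719, Zfp558, Zfp503 and Zfp523 the libraries with both agents lie between those with PgLPS and those of control, while for Zfp821 they range from 33.4 to 43.7 CPM, just under the PgLPS libraries.

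The largest fall was that of Zfp395, which in human cells binds the promoter of the huntingtin gene. It had 6.02, 6.76 and 6.18 CPM in the PgLPS libraries, against 41.6, 42.6 and 38.2 CPM in control libraries, a log2 difference of -2.69 ± 0.14 (edgeR adjusted p = 2.5e-12). Zfp704, a relative of Zfp395, stood at 14.8, 12.9 and 14.3 CPM with PgLPS and at 36.3, 29.0 and 32.0 CPM in control libraries (log2 difference -1.21 ± 0.11, edgeR adjusted p = 7e-09). About 15.9% of the 100-base stretches of Zfp704 transcripts also occur in another gene's transcripts, so part of its count may depend on how such reads were assigned. Zfp469, whose human counterpart is mutated in brittle cornea syndrome, had 3.51, 3.57 and 4.80 CPM with PgLPS and 14.7, 15.1 and 13.2 CPM in control libraries (log2 difference -1.84 ± 0.22, edgeR adjusted p = 5.8e-07). Its row overlaps that of Galnt2l, which had 0 reads.

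The other members that fell by at least 2-fold were Zfp367, Zfp934, Zfp810, Zfp692 and Zfp101, with log2 differences from -1.28 to -1.05. Zfp367 averaged 13.3 ± 1.16 CPM with PgLPS and 32.3 ± 2.44 CPM in control libraries (SD, n = 3 each). Zfp692, whose human counterpart is also called AREBP, had 14.2 ± 3.25 CPM with PgLPS and 30.0 ± 2.57 CPM in control libraries. Zfp934, at 3.67 ± 0.464 CPM with PgLPS and 8.22 ± 0.524 CPM in control libraries, overlaps the row of Zfp935, which had 0 reads. No PgLPS library of these 5 genes reached the lowest control library.

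By orthology group, 13 of the 100 KRAB members rose with PgLPS and 26 fell, with a median log2 difference of -0.10, where 32.2% of all tested genes rose and 31.6% fell. Of the 111 members outside the KRAB group, 32 rose and 24 fell, with a median of 0.00, against a median of -0.00 over all tested genes. With library totals the counts were 5 and 75 for the KRAB group and 12 and 74 for the others. The difference between the groups was not tested. By these counts members of the KRAB group lie on both sides. The 3 highest were Zfp658, Zfp558 and Zfp719, and the 2 lowest were Zfp810 and Zfp101. Of these genes only Zfp719 met the count minimum without its highest group, so the differences of the others are in part a condition of their being here.

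**Figure D3:**
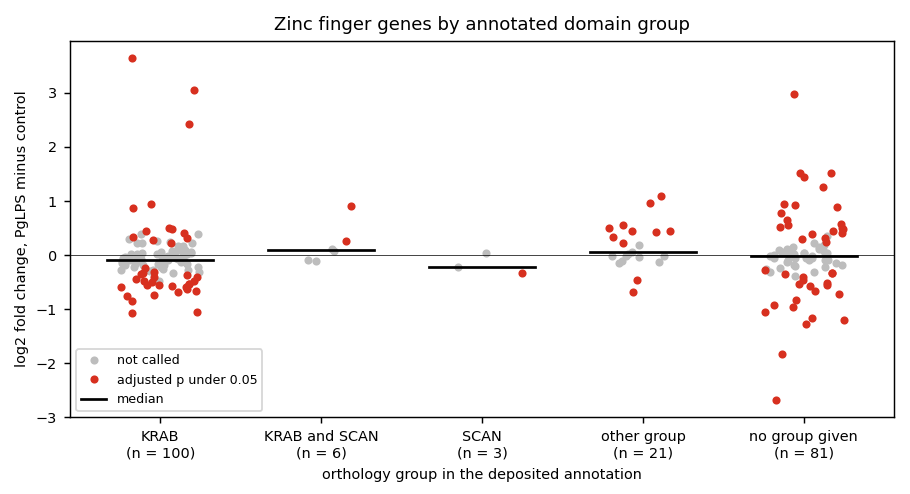
Log2 difference between PgLPS and control (y axis) for each of the 211 zinc finger genes, by the orthology group the deposited annotation gives (x axis), with genes called at an adjusted p under 0.05 in red, the rest in grey and the median of each group as a bar. The KRAB group has its median at -0.10 and 3 genes above 2, while Zfp821 is the highest and Zfp395 the lowest of the genes given no group.

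Members were also counted by described function, beside 32.2% of all tested genes higher and 31.6% lower. No difference between the lists was tested. Of 13 members from a list of 14 genes of RNA, ribosome and protein turnover, 1 rose, Zfp207 (log2 difference 0.50 ± 0.07), and 1 fell, Zfp706 (-0.36 ± 0.07). The other 11 were not called, among them Zfp598, the ubiquitin ligase that marks collided ribosomes, at 48.7 ± 0.296 CPM with PgLPS and 49.6 ± 1.60 CPM in control libraries (SD, n = 3 each). Also not called was Zfp91, a ubiquitin ligase of the non-canonical NF-kB pathway, at 98.0 ± 5.81 CPM with PgLPS and 105 ± 4.69 CPM in control libraries. The median of this list was -0.02, and with library totals, which lower all genes, 0 rose and 11 fell.

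Of 22 members from a list of 26 transcription factors and chromatin regulators, 13 rose with PgLPS and 3 fell, with a median log2 difference of 0.38. The 16 called are 72.7%, against 63.8% of all tested genes and 66.8% of those with at least 1000 reads. Zfp263 was among the risers, at 148, 145 and 149 CPM with PgLPS and 82.6, 75.2 and 79.1 CPM in control libraries (log2 difference 0.90 ± 0.06, edgeR adjusted p = 1.5e-10). Those that fell were Zfp367, Zfp362 (-0.69 ± 0.11) and Zfp652 (-0.47 ± 0.11). Of the 13 rises, those other than Zfp281 and Zfp263 lay between 0.25 and 0.58, near the size of the -0.41 shift between the scalings, and with library totals 2 rose and 9 fell, with Zfp217 and Zfp335 turning from 0.25 and 0.33 to -0.16 and -0.08. Of 6 members with described roles in immune cells, Zfp281, Zfp608 and Zfp335 rose, Zfp318 fell, and 2 were not called, so that 66.7% were called, near the share over all tested genes. With library totals 1 of the 6 rose and 3 fell.

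Repressors of imprinted genes and retroelements gave 4 members from a list of 7. Zfp445, which maintains parental imprints, had a log2 difference of 0.26 ± 0.09 (edgeR adjusted p = 0.021) that turned to -0.16 with library totals, and Zfp932 fell by 0.51 ± 0.12. Zfp809, which silences retroviruses in embryonic cells, averaged 13.6 ± 2.45 CPM with PgLPS and 14.9 ± 2.78 CPM in control libraries, a difference within the spread between libraries. Zfp568 was not called, at 0.26 ± 0.15 (edgeR adjusted p = 0.132).

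The corepressor machinery that KRAB proteins work with, which is not part of the named family, was examined as a list of 23 genes. With PgLPS 4 of these rose and 11 fell, with a median log2 difference of -0.20. The share called, 65.2%, was near the 63.8% of all tested genes. Trim28 itself fell by 0.62 ± 0.06 (edgeR adjusted p = 1.1e-08). The 5 falls of at least 2-fold were those of Uhrf1 (-3.78 ± 0.11) and Dnmt1 (-1.39 ± 0.07), which maintain DNA methylation through replication, of the heterochromatin proteins Cbx5 (-1.60 ± 0.08) and Cbx3 (-1.22 ± 0.09), and of Atf7ip2 (-1.17 ± 0.28), a relative of the Setdb1 cofactor Atf7ip. The histone chaperone Daxx rose by 2.96 ± 0.07, Morc3 by 1.29 ± 0.08 and the deacetylase Hdac1 by 0.80 ± 0.06. Setdb1 was not called, at -0.12 ± 0.07 (edgeR adjusted p = 0.183). With library totals 3 rose and 19 fell, Chd4 turning from 0.17 to -0.24. With CS-PA/CNP added to PgLPS 3 of the 23 were called, 13% against 19.5% of all tested genes. These were Uhrf1 at 0.39 ± 0.13, Trim28 at 0.19 ± 0.06 and Hdac1 at -0.28 ± 0.06. For CS-PA/CNP alone against control 3 fell and 0 rose, 13% against 12.3% of all tested genes. These were Uhrf1 at -0.45 ± 0.09, Cbx5 at -0.29 ± 0.08 and Dnmt1 at -0.26 ± 0.07.

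PgLPS with CS-PA/CNP against PgLPS asks what CS-PA/CNP added to stimulated cells. Of the members 5 rose and 15 fell, 9.48% of them, against 19.5% of all tested genes (9.42% higher, 10% lower) and 22% of tested genes with at least 1000 reads. Among the 181 members that met the minimum without their highest group, 5 rose and 13 fell. At least 2-fold changes were those of Zfp558, Zfp658 and Zfp719, which fell, and of Zfp395, which rose. These are 1.9% of the members, against 3.05% of all tested genes and 2.17% of those with at least 1000 reads. Same-numbered libraries of these 2 groups correlated by 0.114 to 0.392 in their deviations from group means, and differently numbered ones by -0.299 to 0.165. These ranges overlap, so a pairing is not established. With the replicate block 9 members rose and 23 fell, and the share over all tested genes is not given for that fit. All 20 members called without the block were called with it. With library totals 10 rose and 10 fell, against 12.8% and 8.06% of all tested genes, and rises made up 50% of the members' calls in place of 25%. The median log2 difference of the members was -0.05, and that of all tested genes -0.01. This comparison and that of PgLPS with control share the PgLPS libraries, so a chance deviation in those libraries enters both with opposite signs.

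Zfp558 fell most. It had 5.93, 4.05 and 4.97 CPM with both agents, against 16.9, 14.2 and 15.8 CPM with PgLPS, a log2 difference of -1.65 ± 0.17 (SE, n = 3 libraries each; edgeR adjusted p = 8.4e-07). Zfp658 had 12.2, 11.6 and 13.6 CPM with both agents, against 29.6, 25.6 and 33.4 CPM with PgLPS (log2 difference -1.25 ± 0.18, edgeR adjusted p = 3.7e-05). Its neighbour Zfp719 stood at 15.4, 12.7 and 14.1 CPM with both agents and at 31.0, 28.7 and 29.6 CPM with PgLPS (log2 difference -1.08 ± 0.12, edgeR adjusted p = 1.5e-06). For each of the 3 genes the groups did not overlap, and the libraries with both agents also lay above every library without PgLPS: against control, the log2 differences were 1.41 ± 0.21 for Zfp558, 2.40 ± 0.22 for Zfp658 and 1.35 ± 0.13 for Zfp719.

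Smaller falls were seen for Zfp799, Zfp523, Zfp654, Zfp503 and Zfp281. Zfp799, a KRAB-group gene on chromosome 17, had 4.56, 5.09 and 5.79 CPM with both agents, against 8.47, 8.45 and 7.38 CPM with PgLPS and 8.39, 7.19 and 7.44 CPM in control libraries (log2 difference from PgLPS -0.65 ± 0.16, edgeR adjusted p = 0.00638). It was not called for PgLPS against control, at 0.08 ± 0.15 (edgeR adjusted p = 0.681). Its neighbour on the same strand, 5518 bases away, is Zfp811, the gene just outside the count minimum. Zfp523 averaged 11.8 ± 1.06 CPM with both agents and 18.2 ± 1.43 CPM with PgLPS, and Zfp281 75.1 ± 5.81 and 105 ± 13.0 CPM in the same groups (SD, n = 3 each). For Zfp654 the levels were 22.2 ± 2.09 CPM with both agents, 32.4 ± 2.87 CPM with PgLPS and 20.7 ± 2.22 CPM in control libraries, and both agents against control gave 0.10 ± 0.11 (edgeR adjusted p = 0.47). Zfp503 had 11.6, 11.9 and 11.4 CPM with both agents and 16.6, 17.5 and 15.4 CPM with PgLPS (log2 difference -0.50 ± 0.14, edgeR adjusted p = 0.0162), and its adjusted p was 0.0508 without library 3 of both agents.

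Zfp821, the member furthest above control with both agents, was not called here. It had 36.4, 43.7 and 33.4 CPM with both agents, against 45.5, 48.4 and 44.0 CPM with PgLPS, a log2 difference of -0.28 ± 0.13 (edgeR adjusted p = 0.139). With the replicate block it was among the 12 members called in addition. Zfp263 likewise stayed close, at 145 ± 6.91 CPM with both agents and 147 ± 1.86 CPM with PgLPS.

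The rise of Zfp395 was the largest in this comparison. It had 10.5, 15.7 and 12.9 CPM with both agents, against 6.02, 6.76 and 6.18 CPM with PgLPS, a log2 difference of 1.05 ± 0.15 (edgeR adjusted p = 3.7e-05), and remained below control by 1.64 ± 0.12 on the same scale. Zfp469 had 8.73, 6.13 and 8.72 CPM with both agents and 3.51, 3.57 and 4.80 CPM with PgLPS (log2 difference 0.97 ± 0.23, edgeR adjusted p = 0.00552). Zfp704 averaged 19.0 ± 1.84 CPM with both agents and 14.0 ± 0.962 CPM with PgLPS, and Zfp12, a KRAB-group gene, 13.7 ± 0.868 and 9.99 ± 0.0673 CPM in the same groups. Zfp324 had 9.05, 12.3 and 9.68 CPM with both agents and 9.08, 6.37 and 6.84 CPM with PgLPS, and these overlap. Its adjusted p of 0.0465 (log2 difference 0.49 ± 0.17) went above the threshold without library 2 of both agents (0.213), without PgLPS library 3 (0.153) or without PgLPS library 2 (0.144). It was also above it without library 3 of both agents (0.0586), CS-PA/CNP library 2 (0.0559) or control library 2 (0.055), and with only the groups compared in the fit (0.0855).

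**Figure D4:**
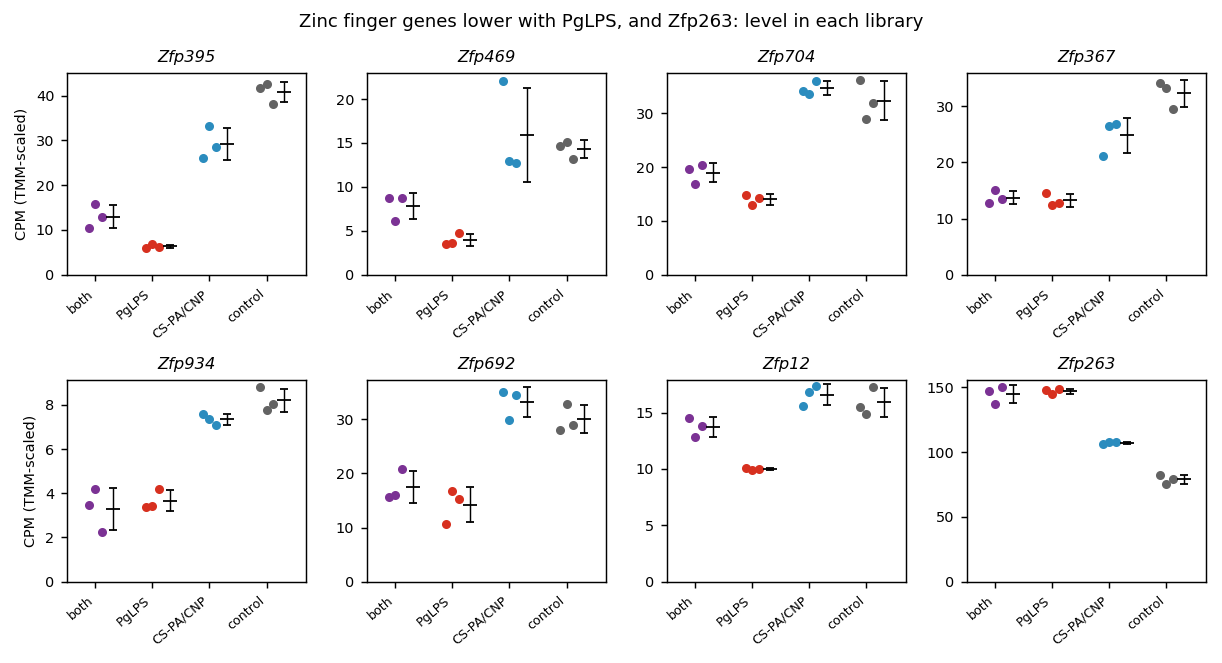
Level of 7 zinc finger genes that were lower with PgLPS than in control, and of Zfp263, in TMM-scaled CPM (y axis, linear from 0), with 1 point per library for both agents, PgLPS, CS-PA/CNP and control from left to right, and the mean ± SD of each group beside its points. Zfp395, Zfp469, Zfp704 and Zfp12 are higher with both agents than with PgLPS, Zfp367 and Zfp934 stand at about the same level in both, and Zfp263 is lowest in control at 75.2 to 82.6 CPM.

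**Figure D5:**
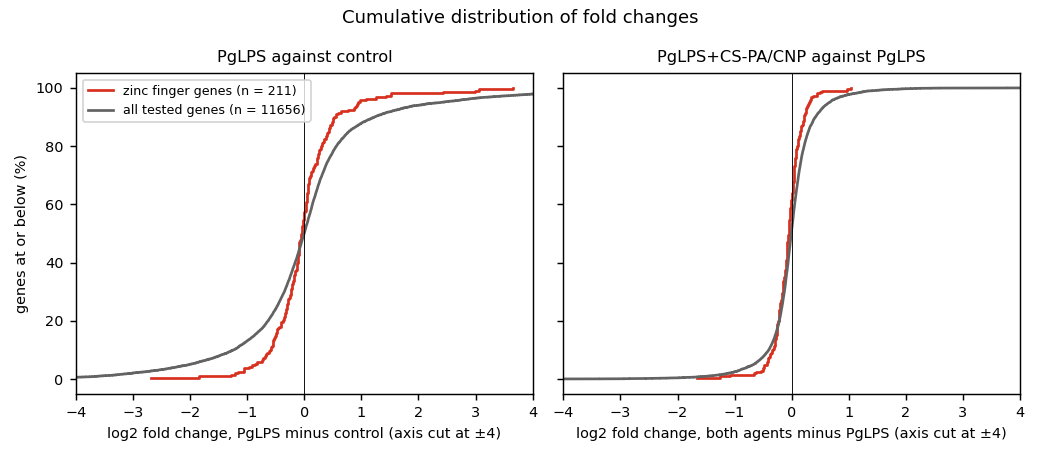
Cumulative share of genes (y axis, percent) at or below each log2 difference (x axis), for the 211 zinc finger genes in red and all 11656 tested genes in grey, in PgLPS against control (left) and both agents against PgLPS (right). On the left the red curve is steeper, with a median absolute difference of 0.26 against 0.45 for all tested genes. On the right the values are 0.14 and 0.17. Tested genes with at least 1000 reads, not drawn, had 0.38 on the left and 0.14 on the right, the latter equal to the members.

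CS-PA/CNP against control asks what CS-PA/CNP did in unstimulated cells, and few members moved. Called were 3 higher and 3 lower, 2.84% of the members, against 12.3% of all tested genes (6.67% higher, 5.61% lower) and 14.4% of tested genes with at least 1000 reads. None passed 2-fold, as 1.45% of all tested genes and 1.25% of those with at least 1000 reads did. With library totals 1 rose and 3 fell, against 5.24% and 7.26% of all tested genes. Zfp263 had 106, 108 and 108 CPM with CS-PA/CNP, against 82.6, 75.2 and 79.1 CPM in control libraries, a log2 difference of 0.44 ± 0.06 (edgeR adjusted p = 3.8e-05). Zfp395 had 26.1, 33.1 and 28.5 CPM with CS-PA/CNP and 41.6, 42.6 and 38.2 CPM in control libraries (log2 difference -0.48 ± 0.11, edgeR adjusted p = 0.00772). Both groups were fully apart in each. These 2 calls held without any 1 library, with the adjusted p of Zfp395 at most 0.0478.

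Each of the remaining 4 calls was lost when any 1 of several libraries was left out. With library totals Zfp503 and Zfp746 also lost theirs (edgeR adjusted p = 0.0548 and 0.074). Zfp503 had 8.78, 6.20 and 9.52 CPM with CS-PA/CNP and 5.66, 6.44 and 5.15 CPM in control libraries, which overlap, and its adjusted p of 0.0368 became 0.116 without control library 1, 0.151 without control library 3, 0.137 without CS-PA/CNP library 1 and 0.232 without CS-PA/CNP library 3. Zfp746, known as PARIS, a repressor that the ubiquitin ligase parkin removes, averaged 32.6 ± 1.01 CPM with CS-PA/CNP and 26.5 ± 2.19 CPM in control libraries, with an adjusted p of 0.0415 (edgeR) that lay between 0.0533 and 0.217 when any 1 of these 6 libraries was left out. Zfp367 fell by 0.38 ± 0.11 and lost its call without control library 1 or 2 or CS-PA/CNP library 1, where the adjusted p (edgeR) was 0.0919, 0.0684 and 0.117. Zfp715 fell by 0.33 ± 0.10, and without control library 1, which at 48.1 CPM was above the other control libraries at 38.8 and 37.0 CPM, it stood at -0.21 (edgeR adjusted p = 0.274). Without control library 2 or CS-PA/CNP library 1 or 2 its adjusted p was 0.052, 0.128 and 0.163. Libraries outside this comparison mattered as well, since all groups share the fit. Without PgLPS library 3 the adjusted p (edgeR) was 0.0566 for Zfp746 and 0.0604 for Zfp715. It was 0.053 for Zfp746 without library 1 of both agents, and 0.0571 for Zfp715 without library 3 of both agents.

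Both agents against control gave 25 rises and 51 falls, 36% of the members, against 58% of all tested genes and 61.1% of tested genes with at least 1000 reads. This comparison shares its libraries with those above and adds no independent value. Rises were 29.7% and falls 28.4% of all tested genes. Among the 181 members that met the minimum without their highest group, 23 rose and 43 fell. With library totals 16 members rose and 151 fell, against 15.5% and 57.4% of all tested genes, under a shift of -0.36 in the median of all genes. In the KRAB group 5 rose and 26 fell, and among the other members 20 rose and 25 fell. At least 2-fold higher were 6 members, with Zfp821 first at 2.70 ± 0.15, and at least 2-fold lower 4, with Zfp395 first at -1.64 ± 0.12. These are 4.74% of the members, against 19.7% of all tested genes and 15.7% of those with at least 1000 reads.

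The interaction tests whether CS-PA/CNP had a different effect in cells with PgLPS than in cells without it, as the first effect minus the second on the log2 scale. Of the members 1 was called with a positive and 7 with a negative interaction, 3.79% of them, against 15.8% of all tested genes (7.46% positive, 8.34% negative) and 18.4% of tested genes with at least 1000 reads. Among the 181 members that met the minimum without their highest group, 1 was positive and 5 were negative. With library totals 5 were positive and 6 negative, against 10.8% and 6.13% of all tested genes. An interaction of at least 2-fold was called for 5 members, 2.37% of them, for 4.49% of all tested genes and for 4.43% of those with at least 1000 reads. With library totals it was called for 3 members. The 5 include Zfp558 and Zfp658, which met the count minimum only with their PgLPS libraries. Zfp395 was the positive one, at 1.53 ± 0.19 (edgeR adjusted p = 8e-06): CS-PA/CNP went with a higher level in PgLPS-treated cells and a lower one in unstimulated cells. Zfp558, Zfp658 and Zfp719 had interactions of -1.74 ± 0.28, -1.62 ± 0.31 and -1.0 ± 0.18. Without PgLPS the effect of CS-PA/CNP on these 3 was 0.08 ± 0.23, 0.37 ± 0.26 and -0.08 ± 0.14, none of them called. Zfp263 had an interaction of -0.47 ± 0.08 (edgeR adjusted p = 0.00054), the CS-PA/CNP effect being -0.03 ± 0.06 in PgLPS-treated cells and 0.44 ± 0.06 in unstimulated cells.

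On the genome 49 members lay on chromosome 7 and 31 on chromosome 17. Counting neighbouring members less than 200 kb apart as 1 cluster, 10 clusters of at least 4 members held 66 genes, and 105 genes stood alone. In most of these clusters the log2 differences with PgLPS had both signs. In the largest, 14 genes on chromosome 17 from Zfp677 to Zfp946, 2 rose and 1 fell, with log2 differences from -0.60 to 0.50 and a median of 0.05. In a cluster of 8 genes on chromosome 13, Zfp429 was the only one called. The cluster of 6 KRAB-group genes on chromosome 6 from Zfp398 to Zfp746 had 3 falls and a median of -0.31. In a cluster of 4 on chromosome 7, from Zfp180 to Zfp61, all differences were negative, from -0.86 to -0.09, and 1 gene was called lower. The pair Zfp658 and Zfp719, which both rose, is not in a cluster of at least 4. On chromosome 7 the 49 members had 5 rises and 13 falls, with a median of -0.17, and Zfp658 and Zfp719 were among the rises. Beside these counts, 21.3% of all members rose and 23.7% fell, and 32.2% and 31.6% of all tested genes. Shares over all genes of a chromosome or cluster are not given here, and no difference between chromosomes or clusters was tested.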

How the data were processed

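RNA of 12 libraries was sequenced on an Illumina NovaSeq, with fragments of 400 to 500 bp and 15 PCR cycles per the labels' protocols. Per the submitters' processing notes the tools included HTSeq 0.9.1, HISAT2 2.0.5, DESeq 1.30.0 and cutadapt 1.15. Genome build and strandedness are stated nowhere in the sources used, so overlapping genes may share reads (27 members overlap another row). The authors deposited raw read counts per gene, which were used here, and gene lengths. FPKM were computed here from those counts, lengths and library totals, and 12 further deposited columns of per-library values were not used. The table's column letters gave the groups, not single samples. Members, lists and tests were chosen with earlier results of these data known. Counts were tested with edgeR 4.0.16 in R 4.3.3 (filterByExpr, TMM scaling, quasi-likelihood F test, 1 mean per group over all 12 libraries, Benjamini-Hochberg over 11656 genes), a script tested on simulated counts. SE is the absolute log2 difference divided by the square root of F. CPM use TMM-scaled totals. Without molecular identifiers, PCR copies count as separate reads.

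Genes were named by rule: up to 8 largest called changes each way for PgLPS against control and for both agents against PgLPS, 5 for CS-PA/CNP against control and 4 for the interaction, beside the highest levels per length, the lists and the genes next to the count minimum; further interactions are given because each was called. Alternatives were library totals, DESeq2 1.42.0 and its size factors, no filter, only the groups compared, each library left out and a replicate block. Column numbers gave the pairs: same-numbered libraries of PgLPS and of PgLPS with CS-PA/CNP correlated by 0.114 to 0.392 in their deviations from group means, all above 0.1, whereas other group pairs did not all pass. Differently numbered libraries of the same 2 groups correlated by -0.299 to 0.165, which overlaps that range. Promoters are from RefSeq (GRCm38.p6), transcripts for shared sequence from GENCODE M21, and chromosomes from the deposited table.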

Additional observations from a re-analysis of the deposited data

Results flagged for a closer look

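The effect of CS-PA/CNP differed between cells with and without PgLPS for 8 zinc finger genes by the interaction term of the edgeR fit (Benjamini-Hochberg adjusted p under 0.05 over all tested genes, n = 3 libraries in each of 4 groups). That is 3.79% of the members, below the 15.8% of all tested genes and 18.4% of those with at least 1000 reads. The difference between the effect with PgLPS and the effect without it was -1.74 for Zfp558, -1.62 for Zfp658, -1.01 for Zfp503, -1.0 for Zfp719, -0.78 for Zfp523, -0.53 for Zfp654, -0.47 for Zfp263 and 1.53 for Zfp395, all on the log2 scale. Of these, Zfp558 and Zfp658 met the count minimum only with their PgLPS libraries. For Zfp503 the effect was -0.50 ± 0.14 with PgLPS and 0.51 ± 0.15 without it, and for Zfp523 it was -0.62 ± 0.12 and 0.16 ± 0.12. The summed stromal genes were also lower with both agents, at 1.91 to 4.62 CPM, than with PgLPS, at 5.82 to 53.5 CPM, though Dcn was not, at 0.755 and 0.745 CPM. Without PgLPS library 1, the highest in that sum, 7 negative and 2 positive interactions were called. The share over all tested genes is not given for that fit. The part of stromal RNA in these results was not tested further.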

How the results depend on the processing

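With library totals in place of composition scaling, members called higher and lower were 17 and 149 for PgLPS against control, 10 and 10 for both agents against PgLPS, 1 and 3 for CS-PA/CNP against control, 16 and 151 for both agents against control, and 5 and 6 for the interaction. With the replicate block, both agents against PgLPS gave 9 and 23, and the interaction 2 positive and 9 negative calls. DESeq2 and the fit with no filter also gave 2 positive interactions. Leaving out 1 library at a time, rises and falls ranged from 35 to 47 and 41 to 52 for PgLPS against control, 4 to 8 and 11 to 21 for both agents against PgLPS (8 and 21 without PgLPS library 2), 1 to 4 and 1 to 3 for CS-PA/CNP against control, 22 to 29 and 45 to 54 for both agents against control, and 1 to 2 and 6 to 9 for the interaction. CS-PA/CNP against control had 1 rise without control library 1 or 3 or CS-PA/CNP library 1 or 3, and 1 fall without control library 1 or 2. Without CS-PA/CNP library 1, without PgLPS library 1, or without the second library given both, there were 2 positive interactions. Of 715 recomputed values of 40 named log2 differences, 684 kept their direction and side of the threshold, 31 lost the call and 0 reversed; apart from Zfp324 and Zfp503 in both agents against PgLPS, the losses were in CS-PA/CNP against control. The cause of these changes was not tested. Shares over all tested genes are not given for the fits with the replicate block, DESeq2, no filter or a library left out. With 3 libraries a group, absence of a call does not show equal levels.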
